A study of Mus musculus with 6 samples.

Results

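The furry genes and their kinase partners form a set of 7 genes: Fry, its paralog Fryl, the NDR kinase genes Stk38 and Stk38l, and the MOB cofactor genes Mob1a, Mob1b and Mob2. The members were taken by symbol from the 53379 gene identifiers of the count files, and all 7 were found. The set was chosen by its leading gene: Fry had been picked out earlier because its level in CPM (counts scaled to library size) differed between the 2 groups of these same libraries. For that reason the values of the members in the comparison between the groups are given as a description. Counts of members called by the tools are given beside those of all genes, and nothing is read from them. The other 6 were included for their relation to Fry.

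RNA sequencing was done on 6 libraries from the cerebral cortex of C57BL/6 mice aged 2 months, 3 labelled wild type (replicates 1, 3 and 4) and 3 labelled GTF2ird1-/- (replicates 5, 6 and 7). The mutated gene, Gtf2ird1, encodes a transcription factor of the TFII-I family and lies in the chromosome region deleted in Williams syndrome. The series title names Gad2+ neurons as the material. The sources used here do not state how those cells were obtained, which part of Gtf2ird1 was mutated or whether each library came from its own animal, so the errors below measure only the spread between these libraries, which may be technical.

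Furry proteins are very large scaffold proteins that bind and activate NDR kinases. NDR kinases belong to the same family as the LATS kinases of the Hippo pathway, need a bound MOB protein for activity and are switched on by STE20-type kinases upstream. In neurons and other cells this module is known for its part in cell shape, the branching and tiling of dendrites, and cell division.

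The libraries carried between 13627501 and 30544144 gene counts, and between 40.0% and 58.2% of all reads were in the no-feature class of HTSeq, meaning that they were assigned to no gene. This class can hold reads from introns. Marker genes went against the title. The 18 microglia markers summed to between 34271 and 52846 CPM. The 15 GABAergic neuron markers summed to between 178 and 1044 CPM, with Pvalb and Npy at a count of 0 in some libraries. Of these 15, Gad1 was at 42.0 to 169 CPM in wild type and 71.5 to 144 CPM in the mutant-labelled libraries (TMM-scaled). Gad2, the gene in the title, was at 29.0 to 107 CPM and 59.8 to 121 CPM in the same groups. Gtf2ird1 was at 23.3, 31.5 and 52.7 CPM in the wild type libraries against 49.7, 40.6 and 48.8 CPM in the mutant-labelled ones, giving 0.37 ± 0.29 (SE) on the log2 scale with an edgeR adjusted p of 0.703. A count over the whole gene cannot check a mutation of unknown extent, so the second group is called mutant-labelled throughout. Wild type replicate 1 stood apart from the other wild type libraries, at -20.6 on the first principal component against 72.5 and 63.1, and the mutant-labelled libraries lay between -56.3 and -26.2. Wild type replicate 3 had 17.5% of its gene counts on ribosomal RNA.

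Of the 7 genes, 3 lie on chromosome 5 of GRCm38 (mm10), the chromosome that also carries Gtf2ird1. Fry (ENSMUSG00000056602.11) spans 150118645 to 150497753 on the plus strand, and its start is 15.7 Mb beyond the end of Gtf2ird1. Fryl (ENSMUSG00000070733.13) spans 73019987 to 73256619 on the minus strand, and Mob1b (ENSMUSG00000006262.15) spans 88720855 to 88764220 on the plus strand. Stk38l (146724995 to 146778812) and Mob1a (83326016 to 83343776) lie on the plus strand of chromosome 6. Mob2 lies on the minus strand of chromosome 7 (142008535 to 142061065) and Stk38 on the minus strand of chromosome 17 (28970880 to 29007995).

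Promoter sequences were read from RefSeq (GRCm38.p6), as the 250 bases before each annotated start. All 7 genes matched, with 10 promoters in all because Mob2 has 4 starts. They were searched on both strands for GGATTA, a core motif known for binding by the protein of Gtf2ird1. It was present in 2054 of 32851 mouse promoters of this length (6.25%) and in 1 of the 10, that of Mob1b. The start searched for Fry, 150259930, lies inside its annotated span. Coding transcripts of Fry in GENCODE M21 also start upstream of it, at 150118645, 150118667 and 150196466. The bases before those starts were not searched. Below are the promoters of Fry, the gene with the largest difference between the groups, of Fryl, its paralog, and of Mob1b, which holds the motif. They are printed 5′ to 3′ on the strand of the gene up to the start of the longest coding transcript in GENCODE M21, and capitals mark the motif as it reads on that strand.
Fry, chr5:150259680-150259766, plus strand: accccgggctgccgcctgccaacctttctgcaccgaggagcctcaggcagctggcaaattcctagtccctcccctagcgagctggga
Fryl, chr5:73256620-73256868, minus strand: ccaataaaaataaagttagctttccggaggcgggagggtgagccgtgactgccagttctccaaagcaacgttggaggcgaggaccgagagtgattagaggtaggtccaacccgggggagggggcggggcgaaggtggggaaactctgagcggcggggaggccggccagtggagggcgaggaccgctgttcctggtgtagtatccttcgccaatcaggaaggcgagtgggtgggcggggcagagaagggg
Mob1b, chr5:88720621-88720854, plus strand: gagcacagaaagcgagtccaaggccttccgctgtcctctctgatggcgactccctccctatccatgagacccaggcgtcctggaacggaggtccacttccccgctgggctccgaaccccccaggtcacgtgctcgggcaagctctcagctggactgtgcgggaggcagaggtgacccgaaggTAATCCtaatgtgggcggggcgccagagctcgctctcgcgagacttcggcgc
The 250-base window of Fry was 67.6% G and C with 8 CG pairs, that of Fryl 62.4% with 17 CG pairs and that of Mob1b 66.4% with 21 CG pairs, against a median of 52.4% and 6 over all promoters. A match or its absence describes these letters alone.

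In their longest coding transcripts, the 7 genes could largely be told apart by sequence. Their other annotated exons, which also collect counts, were not searched. The part searched was 10893 of 29729 exon bases for Fry and 3354 of 11560 for Stk38. No window of 50 bases was shared between the longest coding transcripts of any member and transcripts of another member. Within those transcripts, paralogs did not draw on the same reads at that length. Of the 4501 windows of Stk38l, 877 (19.5%) were also found in transcripts of other genes. The gene that shared the most windows was Gm3555, a processed pseudogene. Gm3555 had between 0 and 3 counts per library, while Stk38l had between 221 and 789. The HTSeq class for reads aligned to more than 1 place held 0 reads in every library. What became of reads from the shared windows is therefore not known, and some reads of Stk38l may be missing from its count. For the other members the shared part was at most 0.522% of windows. The sources used here state neither the read length nor the strand setting of the counting. The antisense gene inside Fry, Gm42556, had a count of 0 in every library.

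Fry encodes the furry scaffold protein. It was measured at 187, 347 and 373 CPM in replicates 1, 3 and 4 of the wild type and at 67.0, 48.8 and 62.4 CPM in the mutant-labelled replicates 5, 6 and 7 (TMM-scaled CPM, from 814 to 6528 counts). Each wild type library lay above each mutant-labelled library, and the lowest wild type library was the one that stood apart. Group means were 302 ± 101 CPM for wild type and 59.4 ± 9.50 CPM for the mutant-labelled group (SD, n = 3 each). On the log2 scale the difference was -2.34 ± 0.28 (SE), or 5.08-fold higher in wild type with a 95% interval from 3.20 to 8.05. Without wild type replicate 1 the log2 fold change was -2.60, and over all settings that left out 1 library it ran from -2.60 to -2.16. Only 7 of 17221 tested genes (0.0406%) had a log2 fold change as low as that of Fry or lower, Fry included. Because Fry was picked for this difference, that share describes its place in the ranking.

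**Figure D1:**
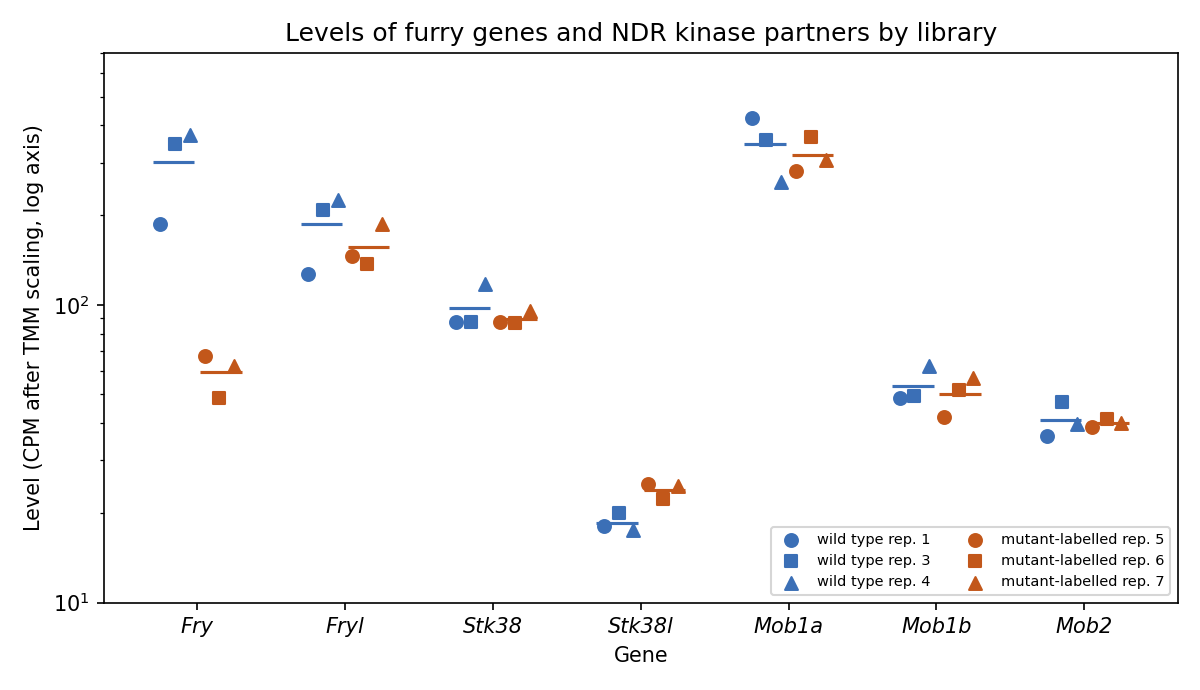
Level of each of the 7 genes in each library, in CPM after TMM scaling on a log axis, with wild type in blue, mutant-labelled in orange, and a line at each group mean (n = 3 each). The wild type points of Fry (187 to 373 CPM) lie above the mutant-labelled points (48.8 to 67.0 CPM), and Stk38l is the only other gene whose groups do not overlap.

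Fryl, the paralog and a scaffold of the same kind, was at 127, 207 and 225 CPM in the wild type libraries against 146, 137 and 186 CPM in the mutant-labelled ones. The groups overlapped, and the library with the lowest level was again wild type replicate 1. Its log2 fold change was -0.25 ± 0.24 (SE), with a 95% interval from -0.81 to 0.31. Without wild type replicate 1 it was -0.47, and without wild type replicate 4 it was -0.09. In wild type, Fry and Fryl were both ordered as the no-feature share of reads, which was 40.0%, 57.6% and 58.2% in replicates 1, 3 and 4. In mutant-labelled replicates 5, 6 and 7 that share was 46.8%, 51.2% and 50.1%, between the wild type values, while Fry was below all of them. The part of this share in the levels was not tested.

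Setting Fry against Fryl within a library narrowed the spread in wild type. The ratio of Fry to Fryl read counts was 1.47, 1.67 and 1.66 in the 3 wild type libraries, in the order of their replicate numbers, and 0.461, 0.357 and 0.335 in mutant-labelled replicates 5, 6 and 7. Wild type replicate 1, low for both genes, was close to the other wild type libraries in their ratio. The means were 1.60 ± 0.111 and 0.384 ± 0.0672 (SD, n = 3 each), so Fry had more reads than Fryl in every wild type library and fewer in every mutant-labelled library. This ratio carries the difference for which Fry was chosen and was not tested between groups.

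**Figure D2:**
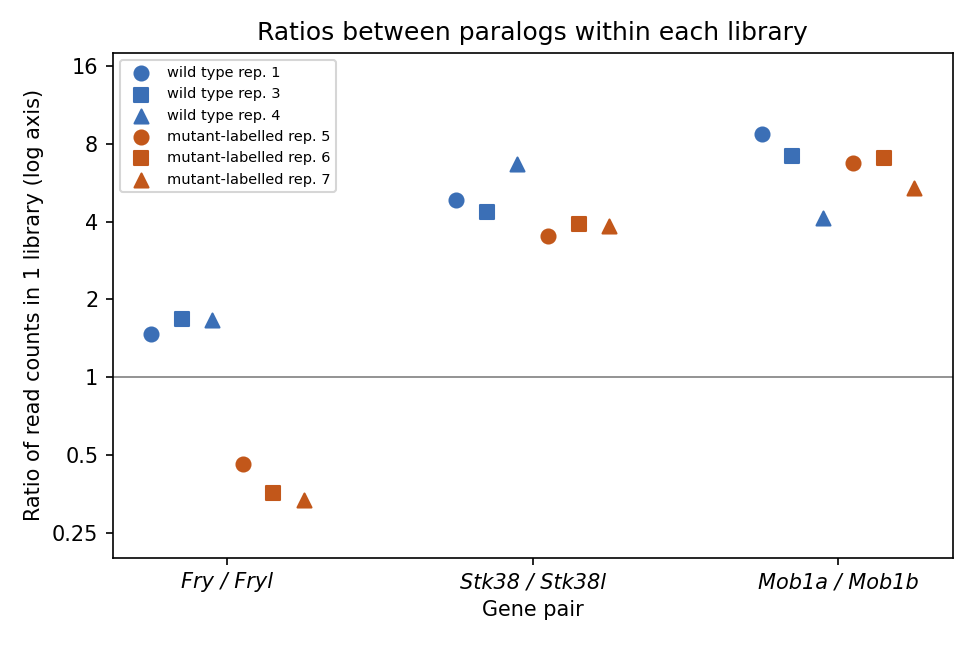
Ratio of read counts between 2 paralogs in the same library, on a log axis, for Fry over Fryl, Stk38 over Stk38l and Mob1a over Mob1b, with wild type in blue and mutant-labelled in orange (n = 3 each). The Fry over Fryl points lie between 1.47 and 1.67 in wild type and between 0.335 and 0.461 in the mutant-labelled libraries.

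The NDR kinase genes had smaller differences between the groups than Fry. Stk38, which encodes NDR1, was at 87.4, 87.2 and 117 CPM in the wild type libraries against 87.5, 86.8 and 95.2 CPM in the mutant-labelled ones, a log2 fold change of -0.11 ± 0.15 (SE; 95% interval from -0.47 to 0.25). Apart from wild type replicate 4, all libraries lay within 10 CPM of each other. Stk38l, which encodes NDR2, was at 18.1, 20.0 and 17.6 CPM in the wild type libraries against 24.9, 22.2 and 24.6 CPM in the mutant-labelled ones. Its groups did not overlap, and the log2 fold change was 0.37 ± 0.14 (SE), or 1.29-fold with a 95% interval from 1.02 to 1.63. Leaving out 1 library gave 0.34 to 0.43. The ratio of Stk38 to Stk38l read counts was 4.84, 4.35 and 6.67 in wild type and 3.51, 3.90 and 3.86 in the mutant-labelled libraries.

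The MOB cofactor genes had overlapping groups. Mob1a, one of the 2 genes for MOB1, the cofactor shared by NDR and LATS kinases, was at 425, 357 and 257 CPM in the wild type libraries against 282, 365 and 307 CPM in the mutant-labelled ones. Wild type replicates 1 and 4 were the highest and the lowest of all libraries, so the spread within wild type covered the mutant-labelled group. The log2 fold changes of Mob1a, Mob1b and Mob2 were -0.12 ± 0.21, -0.09 ± 0.17 and -0.03 ± 0.14 (SE), with 95% intervals from -0.62 to 0.37, from -0.49 to 0.30 and from -0.36 to 0.30. Mob1b, the other MOB1 gene, ranged from 48.5 to 62.5 CPM in wild type and from 41.9 to 56.9 CPM in the mutant-labelled libraries. Mob2, a cofactor that binds NDR but not LATS kinases, ranged from 36.3 to 47.0 CPM and from 38.9 to 41.5 CPM. Scaling by library totals alone moved the median log2 fold change of all genes by 0.14, and it turned the sign of Stk38, Mob1a, Mob1b and Mob2 to 0.01, 0.02, 0.03 and 0.13, while relative to that median Fry was at -2.30 against -2.32 with TMM scaling.

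**Figure D3:**
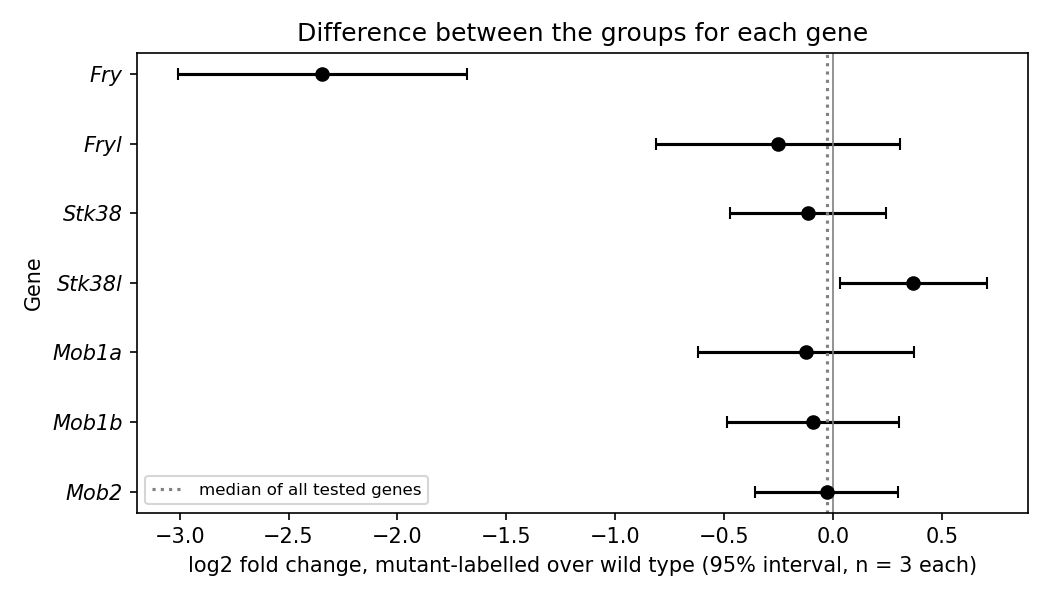
The log2 fold change of each gene, mutant-labelled over wild type, with its 95% interval from edgeR (n = 3 each), a solid line at 0 and a dotted line at the median of all tested genes (-0.03). The interval of Fry runs from -3.01 to -1.68, that of Stk38l from 0.03 to 0.71, and the other 5 intervals include 0.

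All 7 genes passed the filter on low counts. By edgeR, 0 of the 7 passed an adjusted p of 0.05, where 0.00581% of all 17221 tested genes did. At an unadjusted p below 0.05 there were 2, Fry and Stk38l, where 7.25% of all genes did. DESeq2 called 1, Fry, where it called 0.16% of genes, and limma-voom called 0. Fry was also called by edgeR without the filter on low counts, where 0.0163% of genes were, and without wild type replicate 1, where 1.85% were. Groups did not overlap for 2 of the 7, 1 lower and 1 higher in the mutant-labelled libraries. Over all tested genes this was so for 13%, with 6.68% lower and 6.34% higher. The contrast was used to choose Fry, so nothing is read from these counts. The median log2 fold change was -0.11 over the 7 genes and -0.03 over all tested genes.

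Levels were compared between genes only per length, as RPKM (reads per kilobase of annotated exons, scaled as CPM), with the length taken as the union of all exons of a gene. Mob1a had the highest level of the 7, with 69.3 ± 12.9 RPKM (SD, n = 6 libraries). Fryl followed at 11.3 ± 2.67, Stk38 at 8.09 ± 1.04, Mob2 at 6.49 ± 0.578, Fry at 6.08 ± 4.96, Stk38l at 4.35 ± 0.656 and Mob1b at 3.45 ± 0.475 RPKM. Apart from the step from Mob1a to Fryl, neighbours in this order lay within the sum of their SDs. With the longest transcript as length, Fry was at rank 3 and Stk38l at rank 7. The place of Fry differed by group: its range was 6.27 to 12.5 RPKM in wild type and 1.64 to 2.26 RPKM in the mutant-labelled libraries, below every other member there. With the longest transcript as length it was at 6.16, 4.48 and 5.73 RPKM in mutant-labelled replicates 5, 6 and 7, where Stk38l was at 5.48, 4.89 and 5.42 and Mob1b at 4.67, 5.78 and 6.34 RPKM, so that it was not the lowest in replicates 5 and 7.

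Within each library, Mob1a exceeded Mob1b per length by 20.0-fold on average (between 12.9 and 27.5 times), and Stk38 exceeded Stk38l by 1.86-fold (between 1.48 and 2.82 times). For both pairs an exact sign-flip permutation test over the 6 libraries gave a two-sided p of 0.031 (adjusted over 3 pairs, 0.031), which is the smallest that 6 libraries allow. Fry, set against Fryl, stood at 0.753 to 0.855 of its level in wild type and at 0.171 to 0.235 in the mutant-labelled libraries. No p-value is read for that pair, because the values for which Fry was picked enter it. Its p-value was still counted in the adjustment over the 3 pairs. No allowance was made in the ratio of Stk38 to Stk38l for the 19.5% of Stk38l windows shared with other genes. All 3 ratios depended on the length used. With the longest transcript as length, Stk38 exceeded Stk38l by 5.99-fold and Mob1a exceeded Mob1b by 12.9-fold, each in 6 of 6 libraries. For each of these 2 pairs the exact permutation p was 0.031, and 0.0469 after adjustment over the 3 pairs. By that length Fry was above Fryl in wild type, by 1.53, 1.74 and 1.73 times. It was below Fryl in the mutant-labelled libraries, at 0.480, 0.371 and 0.349 of its level. Fry has 17 annotated transcripts, 11 of them retained introns, which bring its exon union to 29729 bases, against 10893 bases for its longest transcript.

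The rest of the pathway was followed through 5 lists with 65 genes, of which 63 were tested. By edgeR 0 of them passed in either direction, and DESeq2 and limma-voom also called 0. An unadjusted edgeR p below 0.05 was found for 2 of the 63, Cttnbp2nl and Amotl2, where 7.25% of all tested genes had one. Among 16 upstream Hippo regulators and STE20 kinases, 12 had negative log2 fold changes (median -0.14). Stk3 and Stk4, which encode the MST kinases that activate NDR and LATS kinases, were at -0.06 and -0.22 (edgeR adjusted p = 0.913 and 0.658). The smallest p-values were those of Rassf5 and Rassf2, genes of RAS-association proteins that bind MST kinases, and Wwc1, which encodes the scaffold KIBRA, at -0.45, -0.32 and 1.43 (edgeR adjusted p = 0.637 each). Lats1 and Lats2 were at -0.01 and -0.18 (edgeR adjusted p = 0.983 and 0.758), and their list with the other MOB genes had a median of -0.01 over 6 genes, with Mob4 (0.23) and Mob3a (-0.18) beside Lats2 at the smallest p-values.

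The 14 genes of the STRIPAK complex, a phosphatase assembly that opposes MST kinases, had a median of 0.05. Cttnbp2nl, Strip2 and Ppp2cb had the smallest p-values in it, at -0.38, 0.87 and 0.26 (edgeR adjusted p = 0.637, 0.638 and 0.641). The 14 NDR substrates and binding partners had a median of 0.06. Aurka, a mitotic kinase gene, Pard3, a polarity gene, and Rab3ip, which encodes the Rab8 activator Rabin8, were at 0.89, 0.72 and -0.27 (edgeR adjusted p = 0.637, 0.658 and 0.679).

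Of 15 genes for YAP, TAZ, TEAD factors and their targets, 13 were tested and 11 of these were positive on the log2 scale (median 0.51). Yap1 and Wwtr1, which encode the Hippo coactivators YAP and TAZ, were 2.48-fold and 1.97-fold higher in the fit, and Amotl2, which encodes a YAP-binding angiomotin, 1.54-fold (edgeR adjusted p = 0.637 each). Yap1 was at 5.18, 1.54 and 1.08 CPM in the wild type libraries against 10.4, 3.71 and 5.75 CPM in the mutant-labelled ones, with wild type replicate 1 inside the range of the latter. Astrocyte markers were ordered in the same way: all 12 were positive on the log2 scale, and their sum was at 3606, 508 and 312 CPM in the wild type libraries against 7108, 3554 and 4185 CPM in the mutant-labelled ones. The part of astrocyte RNA in the YAP list was not tested. Without wild type replicate 1, calls rose across all genes, to 1.85% (306 higher and 15 lower), and 3 of the 63 genes passed as higher, namely Wwc1, Ccn1, a YAP target, and S100b, a calcium-binding protein gene also used as an astrocyte marker (edgeR adjusted p = 0.0378, 0.0422 and 0.033).

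Marker sums were set beside Fry in the same libraries. All 18 microglia markers were tested and had negative log2 fold changes, with a median of -0.27 and none called. Their sum ran from 34271 to 52846 CPM in wild type and from 37702 to 42595 CPM in the mutant-labelled libraries. The ranges of this sum overlapped. With counts scaled to the microglia sum, the log2 fold change of Fry was -2.20, with a median of 0.17 over all genes. The 12 oligodendrocyte markers, all positive on the log2 scale, summed to between 180 and 2451 CPM and between 2055 and 2758 CPM. The 15 GABAergic markers summed to between 178 and 720 CPM and between 537 and 1044 CPM, and all 13 tested were positive. The oligodendrocyte precursor, glutamatergic, pan-neuronal and endothelial sums had higher means in the mutant-labelled group, by 1.48, 0.71, 0.74 and 0.87 on the log2 scale. Of their tested markers, 5 of 5, 4 of 6, 8 of 8 and 7 of 8 were positive. Only the microglia sum had a lower mean in the mutant-labelled group (-0.09 on the log2 scale). Exact permutation tests of the 8 marker sums between the groups gave two-sided p-values from 0.2 to 0.8 (adjusted 0.343 to 0.8), and 0.1 is the smallest that 3 against 3 libraries allow. In bulk RNA, fewer cells of a type and less RNA per cell cannot be told apart.

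Wild type replicate 1 and mutant-labelled replicate 6 had nearly the same astrocyte sum (3606 and 3554 CPM), and Fry was at 187 and 48.8 CPM in them. These 2 libraries were not matched in other sums. Their microglia sums were 52846 and 42595 CPM, their GABAergic sums 280 and 537 CPM and their pan-neuronal sums 365 and 692 CPM. Within wild type, the library with the highest astrocyte and microglia sums had the lowest level of Fry. Whether cell makeup had a part in the level of Fry was not tested.

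**Figure D4:**
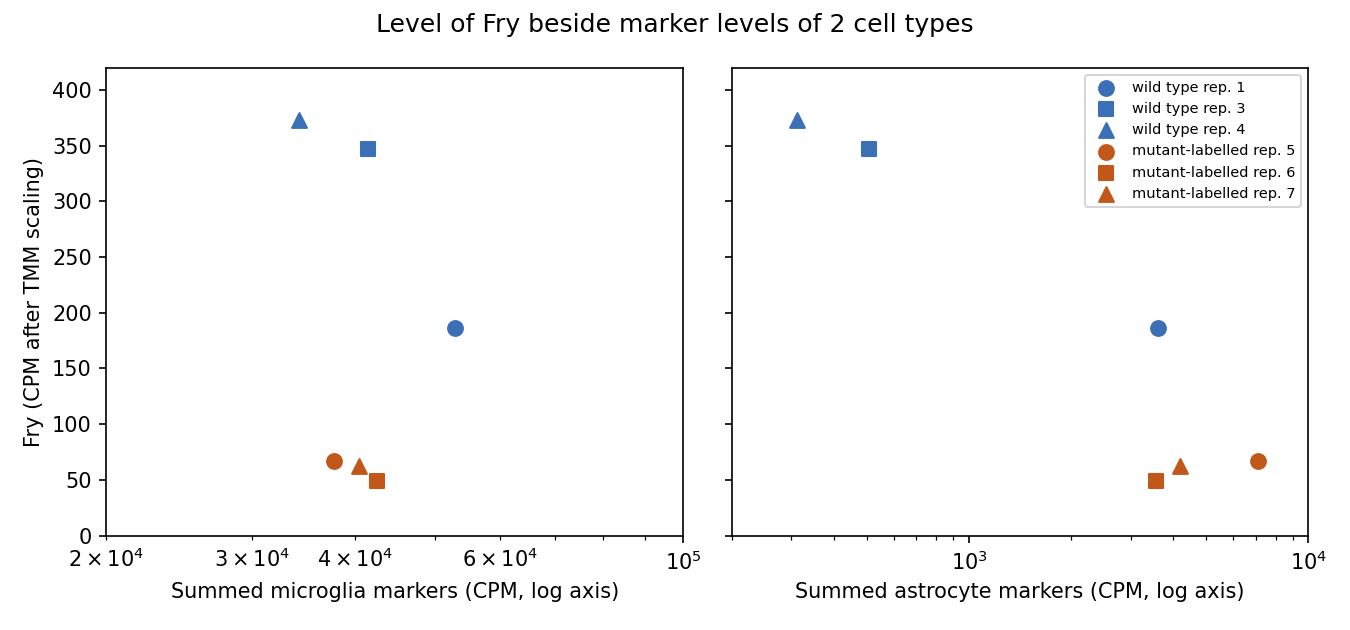
Level of Fry in CPM after TMM scaling against the summed CPM of 18 microglia markers (left) and 12 astrocyte markers (right, both log axes) in each library, with wild type in blue and mutant-labelled in orange. Wild type replicate 1 (blue circle) and mutant-labelled replicate 6 (orange square) have astrocyte sums of 3606 and 3554 CPM and Fry levels of 187 and 48.8 CPM. Their microglia sums are 52846 and 42595 CPM.

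The genes around Fry on chromosome 5 were then examined. Within 1 Mb on each side of its annotated span, 22 other genes were tested, and 8 had positive and 14 negative log2 fold changes (median -0.16). By edgeR 0 of these passed, 5 had an unadjusted p below 0.05 (7.25% of all genes did), DESeq2 called 2, B3glct and Gm18753 (0.16% of all genes), and limma-voom called 0. Groups did not overlap for 5 of the 22, beside the 13% of all tested genes.

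Gm18753, a processed pseudogene on the same strand as Fry, lies in an intron of Fry (150446782 to 150447347) and overlaps none of its annotated exons. It had 19, 16 and 36 counts in wild type and 2, 2 and 7 counts in the mutant-labelled libraries, giving -3.20 ± 0.65 (SE) on the log2 scale with an edgeR adjusted p of 0.637. Its groups lay in the same order as those of Fry, at low counts. Gm36378, another pseudogene inside the annotated span of Fry but before the start of its longest transcript, had 6, 1 and 6 counts in wild type and 23, 7 and 7 counts in the mutant-labelled libraries, and was too low to be tested.

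B3glct, a glucosyltransferase gene, lies 356 kb before the annotated start of Fry. It was at 19.6, 14.7 and 16.8 CPM in the wild type libraries against 48.4, 61.2 and 55.5 CPM in the mutant-labelled ones, giving 1.69 ± 0.17 (SE) on the log2 scale with an edgeR adjusted p of 0.0715, opposite in sign to that of Fry. Stard13, which lies 540 kb beyond Fry, was at 1.47 ± 0.56 (SE; edgeR adjusted p = 0.637), from levels of 0.799 to 4.07 CPM in wild type and 4.91 to 8.09 CPM in the mutant-labelled libraries.

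Of the tested coding genes beyond the end of Fry, the nearest 4 had log2 fold changes close to 0. Brca2, the DNA repair gene 24.9 kb beyond the end of Fry, was at 0.06 ± 0.25 (SE), N4bp2l1 at -0.07 ± 0.18, N4bp2l2 at 0.01 ± 0.13 and Pds5b, a cohesin regulator gene, at 0.01 ± 0.19 (edgeR adjusted p = 0.947, 0.915, 0.982 and 0.987). On the other side, Hsph1, a chaperone gene, was at 0.43, Alox5ap, needed for leukotriene synthesis, at -0.19, Uspl1, a SUMO protease gene, at -0.11 and Hmgb1, a chromatin protein gene, at -0.13, with edgeR adjusted p-values of 0.734, 0.761, 0.841 and 0.824. The other 12 tested genes, Gm18753 among them, were noncoding or pseudogenes. Among them Gm42531, a sense intronic gene 64.6 kb beyond Fry, was at -1.15 ± 0.76 (SE; edgeR adjusted p = 0.673). Besides Gm18753, 2310047D07Rik and 1700028E10Rik had an unadjusted p below 0.05, at -0.84 and -0.89 (edgeR adjusted p = 0.637 each).

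**Figure D5:**
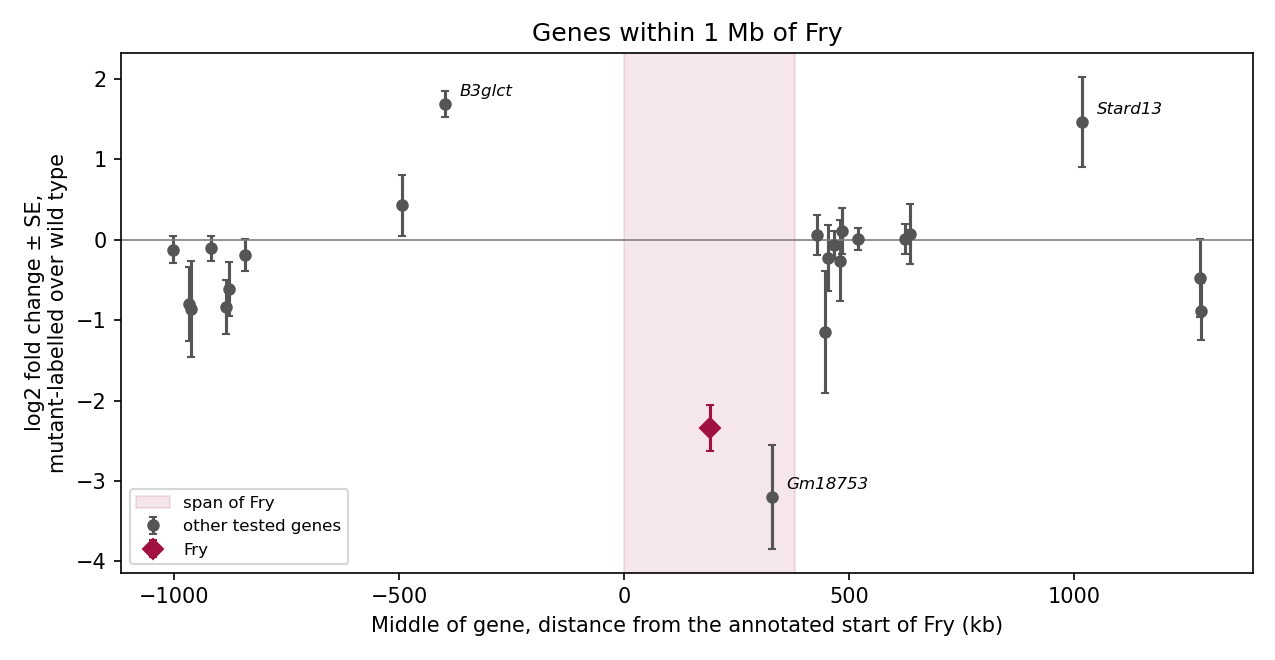
The log2 fold change ± SE of Fry (diamond) and of the 22 other tested genes within 1 Mb (circles) against the distance of the middle of each gene from the annotated start of Fry in kb, with the span of Fry shaded. Fry (-2.34) and the intronic pseudogene Gm18753 (-3.20) lie below 0, B3glct (1.69) above, and Brca2 just beyond Fry is at 0.06.

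The genes most like Fry across the libraries were found by the Pearson correlation of log2 CPM over the 6 libraries, among 9761 other genes with a mean of at least 10 CPM. They were Faf2 (0.992), Trib1 (0.990), Rab3gap2 (0.983), Urb1 (0.981) and Uxs1 (0.980). These points share library, depth and the order of the groups, and the measure ignores the size of a difference. Trib1, which encodes a pseudokinase, was at 45.2, 57.4 and 58.4 CPM in the wild type libraries against 35.4, 31.5 and 36.8 CPM in the mutant-labelled ones, and the other 4 had log2 fold changes between -0.25 and -0.10. No member was near the top of this ranking: Fryl was at rank 2102 with 0.584, Stk38 at rank 2923 with 0.461, and Stk38l near the end at rank 9498 with -0.834.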

How the data were processed

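The deposited values are raw read counts per Ensembl gene, 1 file per library, from Trim Galore 0.60, STAR 2.7, HTSeq 1.31 and mm10, per the submitters' processing notes. The sources used here state neither the annotation release nor the strand setting. The 5 summary lines of each file name no gene (42.3% to 72.1% of all reads) and were left out. Of 53379 identifiers, 53274 matched GENCODE M21. Genes were tested in edgeR 4.0.16 (R 4.3.3) by quasi-likelihood, with TMM scaling, filtering by group and robust shrinkage. Benjamini-Hochberg adjustment was over 17221 genes, with a two-sided threshold of 0.05. The code was checked on simulated data with the same spread for every gene. That check does not describe how the test behaves on these libraries. Standard errors come from the F statistic. Marker sums are CPM over all gene counts, and other levels are TMM-scaled. A count of 0 allows up to 3 counts, or 0.0982 to 0.22 CPM. Libraries of a group differed beyond sampling noise (lowest chi-square per degree of freedom 56.9).

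The members and lists were chosen with earlier results of these data known. Genes named were the members, the label checks, 6 core Hippo genes, 3 genes per list with the smallest p, tested genes within 1 Mb of Fry and the 5 genes most like it. Other names (Gm3555, Gm36378, Gm42556, Ccn1, S100b, Pvalb, Npy) were added after their values were seen. Alternatives were other scalings, DESeq2 1.42.0, limma-voom (limma 3.58.1), other filters and leaving out each library.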

Additional observations from a re-analysis of the deposited data

How the results depend on the processing

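Genes called higher numbered 1 with the design as described, 21 with DESeq2, 4 without the filter on low counts and 2 when scaled to the microglia markers, an alternative chosen after seeing the data. Genes called lower numbered 0, 7 with DESeq2 and 1 without the filter. Leaving out 1 library gave 1 to 306 higher and 0 to 15 lower. Both maxima came without wild type replicate 1. Members called numbered 1 (Fry) with DESeq2, without the filter and without wild type replicate 1, and 0 to 1 over the settings without 1 library. Fry was picked for this contrast, and nothing is read from these counts. The lists of upstream regulators, of YAP and its targets and of NDR partners had 0 to 1 calls without 1 library.

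The log2 fold change of Stk38l moved from 0.37 to 0.52 with library totals and 0.58 with microglia scaling, and that of Mob2 from -0.03 to 0.13 and 0.16. The paralog ratios (log2) ran from -1.55 to -1.08 for Fry over Fryl, 0.78 to 0.97 for Stk38 over Stk38l and 4.23 to 4.44 for Mob1a over Mob1b without 1 library, where 5 libraries allow no p below 0.0625. With the longest transcript as length the 3 ratios were -0.30, 2.58 and 3.69, and Fry over Fryl changed sign in the wild type libraries. The microglia sum, log2 of mutant-labelled over wild type, was -0.09, and -0.25 with TMM scaling. Without 1 library it ran from -0.23 to 0.0877, and it changed sign without wild type replicate 1. No paired analysis was possible because the groups share no replicate numbers. Depth was not limiting for the members, whose lowest count was 221.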
